A study of Rattus norvegicus with 3 samples.

Results

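Heat shock proteins and folding chaperones were read on rat expression arrays from a time course of which 3 arrays were given, labelled 0.0 h, 0.1 h and 1.0 h. The members were 10 gene symbols: Hsph1, Hspa5, Hspa8, Hspa1b, Hsp90ab1, Hspd1, Hspe1, Hspb1, Canx and Calr. A probe set, the group of array probes that reports 1 transcript, was used when the platform annotation named that gene and no other. This left 25 probe sets for 8 of the 10 genes, out of 4736 genes with a probe set of their own. Hspa8 and Hspa1b had only probe sets shared with another gene, and these are described apart. Each array held total RNA, and every sample carries the same source label, pineal gland with adrenal medulla. The labels call the series a time course and do not say what the hours are counted from, so 0.1 h and 1.0 h are used as the labels of the later arrays and 0.0 h as the earliest. The sources used here give no agent, strain, age or number of animals. With 1 array per label no difference below has a replicate check or a p-value.

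Chaperones bind unfolded stretches of other proteins and keep them from clumping while they fold. Cytosolic members such as Hsp70, Hsp90 and Hsp110 work in a cycle with cochaperones, and heat shock factor 1 switches on many of their genes through heat shock elements when unfolded protein accumulates in the cytosol. In the endoplasmic reticulum, BiP and the lectins calnexin and calreticulin fold secreted and membrane proteins, and their genes answer to the unfolded protein response through a different element. Hsp60 and Hsp10 form a folding chamber in mitochondria. Pinealocytes and chromaffin cells are secretory cells, so the endoplasmic reticulum set is part of their ordinary equipment.

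Values are intensities scaled so that the arrays had equal medians, and 262.9 on that scale was taken as a floor below which a probe set was not read. A difference was taken only where both arrays lay above the floor, and 2-fold was the smallest difference counted. The spread of log2 differences over all probe sets, as an SD from the median absolute deviation, was 0.53 for 0.1 h over 0.0 h, 0.44 for 1.0 h over 0.0 h and 0.56 for 1.0 h over 0.1 h. Of 5 pinealocyte markers, 4, 5 and 5 lay above the floor at 0.0 h, 0.1 h and 1.0 h. Of 4 chromaffin markers, Pnmt and Chgb were above it on every array and Th and Dbh on none, and 0 of 3 adrenal cortex markers were above it. For beta-actin, probes at the 3' end gave more signal than those at the 5' end, as happens in degraded RNA, and the ratio was 10.4, 17.8 and 44.4 at 0.0 h, 0.1 h and 1.0 h. The same ratio for GAPDH was 15.3, 18.6 and 14.1, lowest at 1.0 h, and the part of RNA quality in the results below was not tested. The 0.1 h array enters 2 of the 3 comparisons, as do the other arrays, so the comparisons are not independent.

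**Figure D1:**
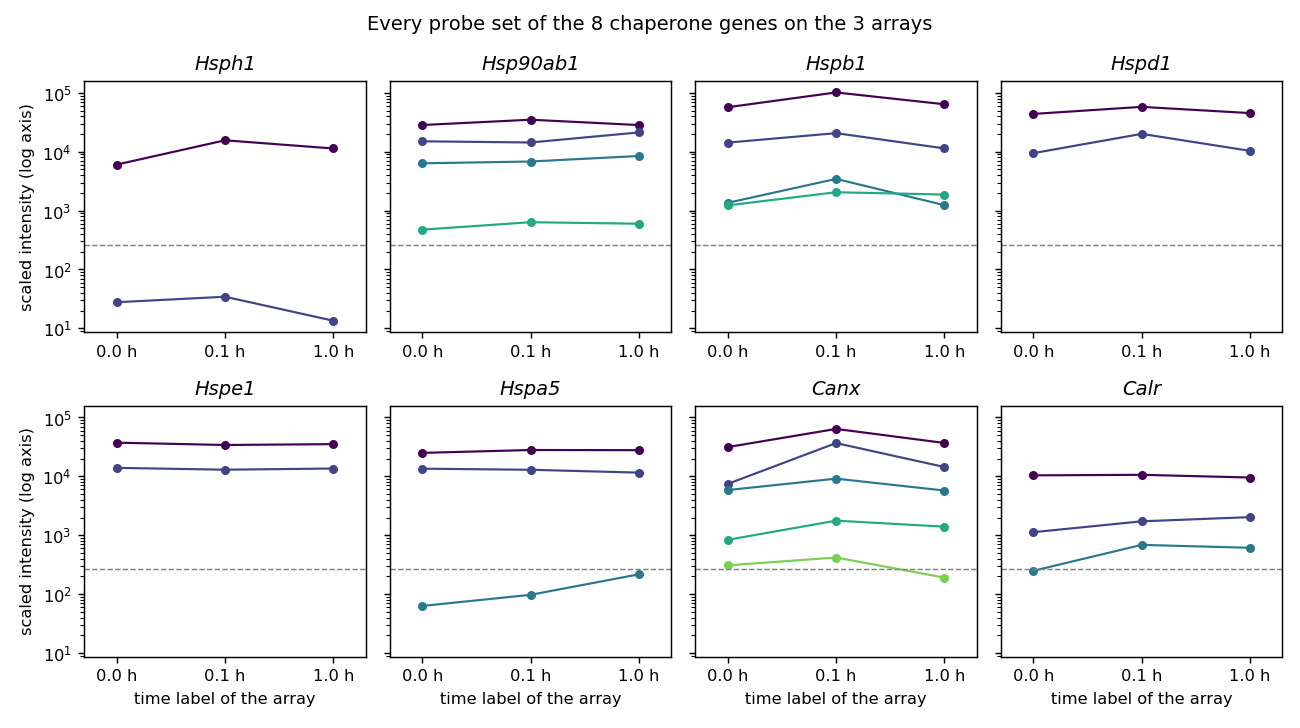
Scaled intensity on a log axis for every probe set of the 8 genes, 1 line per probe set, against the time label of the array. The dashed line is the floor of 262.9. The Canx and Hspb1 lines all peak at 0.1 h, the Hspe1 lines are nearly flat, and 1 probe set each of Hsph1 and Hspa5 stays below the floor.

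Of the 3 cytosolic members with a probe set of their own, Hsph1 had the largest difference from 0.0 h on its brightest probe set. Hsph1 encodes Hsp110, which acts as a nucleotide exchange factor for Hsp70 and takes part in pulling aggregates apart. Its 1 readable probe set, rc_AI236601_at, had 6051 at 0.0 h, 15631 at 0.1 h and 11347 at 1.0 h. The level was 2.58-fold higher at 0.1 h than at 0.0 h, a log2 difference larger than that of 97.9% of genes. It was 1.88-fold higher at 1.0 h than at 0.0 h, larger than 96.4% of genes, and 1.38-fold lower at 1.0 h than at 0.1 h. With the spike-in controls made equal, the log2 difference between 1.0 h and 0.1 h was 0.0067, so the lower level at 1.0 h depended on the scaling. The other Hsph1 probe set, AA108277_at, could not be read, at 27.8, 34.5 and 13.5, so the Hsph1 difference rests on a single probe set. When both probe sets were averaged, the log2 difference was 0.84 at 0.1 h over 0.0 h and -0.07 at 1.0 h over 0.0 h.

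The Hsph1 promoter is shown because heat shock elements are the DNA sites through which this gene class is known to be induced. The window runs from 250 bases before to 50 bases after the annotated start, from RefSeq on build GRCr8, chr12:10427118-10427417, plus strand. Capitals mark a run of 3 heat shock units, searched as GAA, TTC and GAA with 2 bases of any kind between neighbours, or as TTC, GAA and TTC, on both strands. A match of 3 units also contains one of 2 units.
Hsph1: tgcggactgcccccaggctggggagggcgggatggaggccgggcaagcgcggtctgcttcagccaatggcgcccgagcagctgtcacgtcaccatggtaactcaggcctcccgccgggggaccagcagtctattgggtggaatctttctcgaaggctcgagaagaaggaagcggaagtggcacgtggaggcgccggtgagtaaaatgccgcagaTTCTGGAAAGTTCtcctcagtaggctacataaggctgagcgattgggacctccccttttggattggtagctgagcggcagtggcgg
The run lies at -36 to -24 relative to the start, and another match, of 2 units, lies at -105 to -98. A run of 3 units was found in 267 of 33469 promoter windows of the same length, or 0.798%. A match is a description of letters and not evidence that a factor bound there.

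Hspb1 encodes Hsp27, a small heat shock protein that holds unfolded proteins without using ATP. All 4 of its probe sets were higher at 0.1 h than at 0.0 h. The brightest, rc_AA998683_g_at, had 56993, 101562 and 63972 at 0.0 h, 0.1 h and 1.0 h, which is 1.78-fold higher at 0.1 h than at 0.0 h. A dimmer set designed on the same expressed sequence tag, rc_AA998683_at, had 1356, 3457 and 1237 and was 2.55-fold higher at 0.1 h than at 0.0 h. The remaining sets, rc_AI176658_s_at and M86389cds_s_at, were 1.45-fold and 1.67-fold higher. At 1.0 h all 4 were lower than at 0.1 h, by 1.09-fold to 2.80-fold, and with the spike-in controls made equal 3 of the 4 were lower. Against 0.0 h the 1.0 h values went both ways, with log2 differences between -0.33 and 0.61. The direction at 0.1 h was the same for all 4 probe sets under each of the other scalings and floors tried, with a lowest log2 difference of 0.26 when the spike-in controls were made equal. The Hspb1 window held 2 separate matches of 2 heat shock units, at -129 to -122 and -109 to -102, and none of 3 units. Matches of 2 units were found in 15.9% of all windows.

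Hsp90ab1 encodes the Hsp90 beta chaperone, which is made constitutively and matures kinases and steroid receptors. Its brightest probe set, rc_AI236795_s_at, had 28408, 34975 and 28374 at 0.0 h, 0.1 h and 1.0 h, so 0.1 h was 1.23-fold higher than 0.0 h and 1.0 h was level with 0.0 h. The probe set rc_AI007820_s_at had 15036, 14350 and 21271, with its highest value at 1.0 h instead. The probe set S45392_at had 6359, 6818 and 8472, and rc_AI008074_s_at had 474.9, 635.6 and 598.8. None of the 4 was 2-fold apart in any comparison. Log2 differences between 0.1 h and 0.0 h ranged from -0.07 to 0.42, which lies within the SD over all probe sets of 0.53. At 1.0 h over 0.0 h they ranged from -0.0017 to 0.50, and the highest was beyond the SD of 0.44. At 1.0 h over 0.1 h they ranged from -0.30 to 0.57, against an SD of 0.56. The Hsp90ab1 window held no match of 2 or 3 heat shock units.

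The mitochondrial pair gave different values. Hspd1 encodes Hsp60 and Hspe1 encodes Hsp10, the lid of the same chamber. For Hspd1 the brightest probe set, X54793_at, had 43821, 57804 and 45302 at 0.0 h, 0.1 h and 1.0 h, and was 1.32-fold higher at 0.1 h than at 0.0 h. The dimmer rc_AA858640_s_at had 9453, 20107 and 10347 and was 2.13-fold higher at 0.1 h. On both Hspd1 probe sets the 1.0 h value was close to the 0.0 h value, with log2 differences of 0.05 and 0.13. For Hspe1 the probe set rc_AI170613_at had 37349, 34111 and 35263, and rc_AI170613_g_at had 13951, 12979 and 13592. Both Hspe1 sets were slightly lower at 0.1 h than at 0.0 h, with log2 differences of -0.13 and -0.10, and they differed from each other by 0.03. The gap between Hspd1 and Hspe1 was not tested, since each array is 1 sample.

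The Hspd1 and Hspe1 genes lie next to each other on opposite strands, and their promoter windows share 211 bases. The Hspe1 window is shown because 1 heat shock run lies in both windows. It comes from RefSeq on GRCr8, chr9:64084077-64084376, plus strand, and capitals mark overlapping matches of 3 heat shock units.
Hspe1: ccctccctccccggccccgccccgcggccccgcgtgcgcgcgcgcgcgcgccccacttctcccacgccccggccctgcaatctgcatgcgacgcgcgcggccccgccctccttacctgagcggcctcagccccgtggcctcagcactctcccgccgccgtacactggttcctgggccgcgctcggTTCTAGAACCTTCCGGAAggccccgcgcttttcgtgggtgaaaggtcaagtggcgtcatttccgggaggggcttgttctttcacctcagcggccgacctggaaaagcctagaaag
The run is 18 bases long and lies at -65 to -48 relative to the Hspe1 start. In the Hspd1 window, chr9:64083988-64084287 on the minus strand, the same bases read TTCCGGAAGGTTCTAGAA and lie at -242 to -225. The start site of that window and the 5' end of the RefSeq gene are 295 bases apart for Hspd1, 174 for Hsp90ab1 and 97 for Canx, so positions in these genes depend on the transcript taken.

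Among the chaperones of the endoplasmic reticulum, Canx was higher at 0.1 h on every probe set and Hspa5 was level. Canx encodes calnexin, a membrane lectin that holds newly made glycoproteins until they fold. Its brightest probe set, rc_AI010725_g_at, had 31440, 63931 and 36895 at 0.0 h, 0.1 h and 1.0 h, and was 2.03-fold higher at 0.1 h than at 0.0 h. The probe set rc_AI010725_at, designed on the same tag, had 7451, 36774 and 14413 and was 4.94-fold higher, a difference larger than that of 99.8% of all probe sets. L18889_at had 836.8, 1769 and 1400 and was 2.11-fold higher at 0.1 h. The last pair, rc_AI235707_g_at and rc_AA893328_at, were 1.56-fold and 1.36-fold higher, and the second of these was near the floor with 308.3, 418.5 and 190.8. All 5 Canx sets were highest at 0.1 h. The 4 that could be read at 1.0 h were lower there than at 0.1 h, by 1.26-fold to 2.55-fold, and with the spike-in controls made equal 3 of these 4 were lower. The brightest set sits at the 2-fold mark, and Canx passed it in 4 of 9 settings, with log2 differences between 0.75 and 1.10.

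Hspa5 encodes BiP, the Hsp70 of the endoplasmic reticulum and a usual readout of the unfolded protein response. Its brightest probe set, M14050_s_at, had 25045, 28023 and 27858 at 0.0 h, 0.1 h and 1.0 h. The set S63521_i_at had 13509, 12943 and 11577. Log2 differences of both sets over the 3 comparisons lay between -0.22 and 0.16, inside the SD over all probe sets in each comparison. The remaining set, S63521_r_at, was below the floor on all 3 arrays.

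Calr encodes calreticulin, the soluble partner of calnexin and a calcium store protein. The brightest set, D78308_at, had 10401, 10628 and 9556 and was level on the 3 arrays. The dimmer D78308_g_at, designed on the same sequence, had 1126, 1724 and 2031, which is 1.53-fold higher at 0.1 h and 1.80-fold higher at 1.0 h than at 0.0 h. X53363cds_s_at had 248.9, 686.1 and 612.3, and only its 0.0 h value missed the floor. The Calr probe sets thus did not give 1 answer, and the brightest gave no difference as large as the SD over all probe sets.

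The promoters of these 3 genes are shown because each held the endoplasmic reticulum stress element, CCAAT and CCACG with 9 bases of any kind between them, on either strand, through which unfolded protein response factors are known to act. That match was found in 22 of 33469 windows, or 0.0657%. Of the 22 genes, 8 were members or belonged to the other chaperone lists described below: Hspa5, Canx, Calr, Hsp90b1, Ero1b, Creld2, Dnajc3 and Xbp1. The windows are from RefSeq on GRCr8, chr3:38452766-38453065 on the plus strand for Hspa5, chr10:35157808-35158107 on the minus strand for Canx and chr19:40213117-40213416 on the plus strand for Calr. Capitals mark the element, which lies on the opposite strand in Calr.
Hspa5: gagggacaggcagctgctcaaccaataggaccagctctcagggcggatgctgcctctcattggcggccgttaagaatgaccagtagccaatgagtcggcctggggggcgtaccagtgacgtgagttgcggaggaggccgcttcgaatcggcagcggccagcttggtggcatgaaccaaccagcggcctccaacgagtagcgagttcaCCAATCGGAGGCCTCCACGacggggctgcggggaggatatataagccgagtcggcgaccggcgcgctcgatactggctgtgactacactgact
Canx: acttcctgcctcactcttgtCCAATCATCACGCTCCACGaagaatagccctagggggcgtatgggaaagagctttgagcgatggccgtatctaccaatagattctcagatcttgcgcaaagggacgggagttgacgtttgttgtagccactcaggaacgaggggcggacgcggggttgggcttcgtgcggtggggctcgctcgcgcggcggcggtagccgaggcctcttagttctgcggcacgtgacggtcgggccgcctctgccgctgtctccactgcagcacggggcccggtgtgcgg
Calr: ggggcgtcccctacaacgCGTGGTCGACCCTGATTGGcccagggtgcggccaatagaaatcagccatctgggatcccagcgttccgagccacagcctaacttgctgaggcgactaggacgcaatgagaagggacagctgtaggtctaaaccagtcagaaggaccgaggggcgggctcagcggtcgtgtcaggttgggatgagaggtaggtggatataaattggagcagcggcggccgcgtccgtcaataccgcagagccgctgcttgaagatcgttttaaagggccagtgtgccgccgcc
The element lies at -43 to -25 in Hspa5, -230 to -212 in Canx and -232 to -214 in Calr. The 3 genes shared the element and had log2 differences between 0.1 h and 0.0 h of 0.16, 1.02 and 0.03 on their brightest probe sets. Hsp90b1, Ero1b and Hnrnpa3, the other genes with this element that were above the floor, had -0.52, -0.73 and 0.37. No common direction was seen among these 6 genes at 0.1 h.

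**Figure D2:**
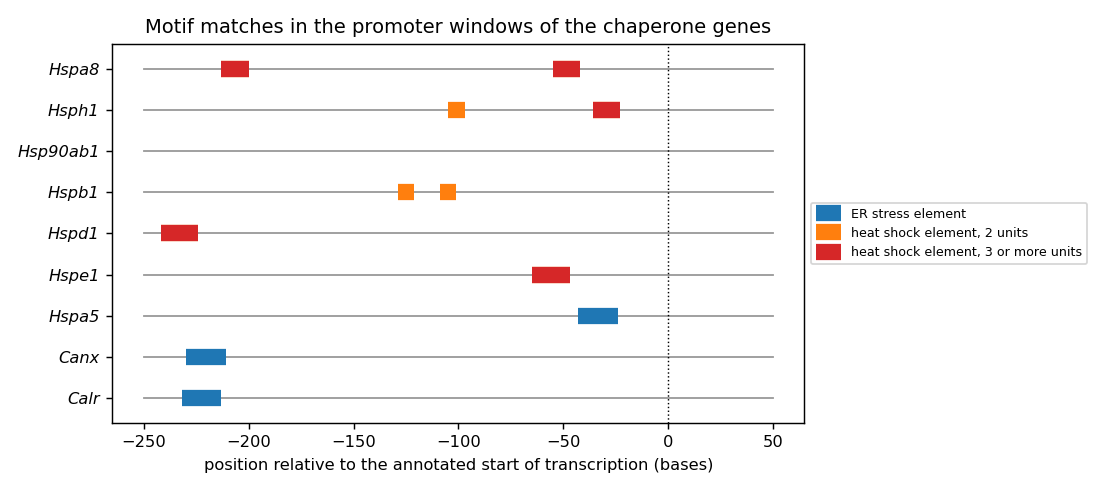
Motif matches in the promoter windows of the 9 member genes that have one in RefSeq, by distance in bases from the annotated start. Bars span the matched bases: red for 3 or more heat shock units, orange for 2 units and blue for the endoplasmic reticulum stress element. The heat shock matches fall in the cytosolic and mitochondrial genes and the stress element in Hspa5, Canx and Calr, and Hsp90ab1 has neither.

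At 0.1 h against 0.0 h, 2 of the 8 genes were at least 2-fold higher on their brightest probe set, Hsph1 and Canx, and 0 were 2-fold lower. Among all genes read in this comparison the same mark was passed upward by 5.65% and downward by 4.71%. As a group the 8 had a median log2 difference of 0.35, against -0.0034 over 2993 genes. Of the 8, 7 were positive, against 49.7% of all genes. The 7 include Calr at 0.03, which was negative in 4 of 8 settings. Counted by probe set, 6 of 22 that could be read were at least 2-fold higher and 0 lower, against 6.18% and 4.34% of all probe sets. The 6 belonged to 4 genes, 3 to Canx and 1 each to Hsph1, Hspd1 and Hspb1, and probe sets of 1 gene share a transcript, so they are not separate observations. Of the 25, 16 were among the brightest 25% of all probe sets, where 6.18% passed 2-fold upward and 4.62% downward. The 6 were not all among these 16, since L18889_at of Canx lay below 1963, the cut for that group, on all 3 arrays. With the spike-in controls made equal, which lowers every 0.1 h over 0.0 h difference by 0.27, the median of the 8 genes was 0.08 and the count of probe sets 3. Hspa5, Calr and Hspe1 were negative under that scaling, at -0.11, -0.24 and -0.40.

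At 1.0 h against 0.0 h, 0 of the 8 genes and 0 of 21 readable probe sets were 2-fold apart in either direction. Over all genes the shares were 2.41% higher and 2.61% lower, over all probe sets 2.93% and 2.53%, and over the brightest 25% of probe sets 2.11% and 2.52%. The median log2 difference of the 8 genes was 0.10, against 0.01 over 3029 genes. Hsph1 had the highest difference of the 8 with 0.91, and Calr the lowest with -0.12. Hsph1 and Canx had 1.88-fold and 1.17-fold higher levels on their brightest sets, and a dimmer Canx set reached 1.93-fold.

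At 1.0 h against 0.1 h, 0 of the 8 genes were 2-fold apart, and 7 of 8 were negative, with a median log2 difference of -0.33 against 0.0043 over 3042 genes. The 7 include Hspa5 at -0.0086, which was positive in 6 of 9 settings. Of all genes, 50.3% were positive in this comparison. Over all genes 4.11% passed 2-fold upward and 5.03% downward, and over the brightest 25% of probe sets 3.3% and 6.0%. By probe set, 2 of 22 were at least 2-fold lower and 0 higher, against 5.46% and 3.91% of all probe sets: rc_AA998683_at of Hspb1 at 2.80-fold and rc_AI010725_at of Canx at 2.55-fold. The share of 2 in 22 is 9.09%. With the spike-in controls made equal the median of the 8 genes was 0.14, so the direction as a group at 1.0 h against 0.1 h changed with that scaling.

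**Figure D3:**
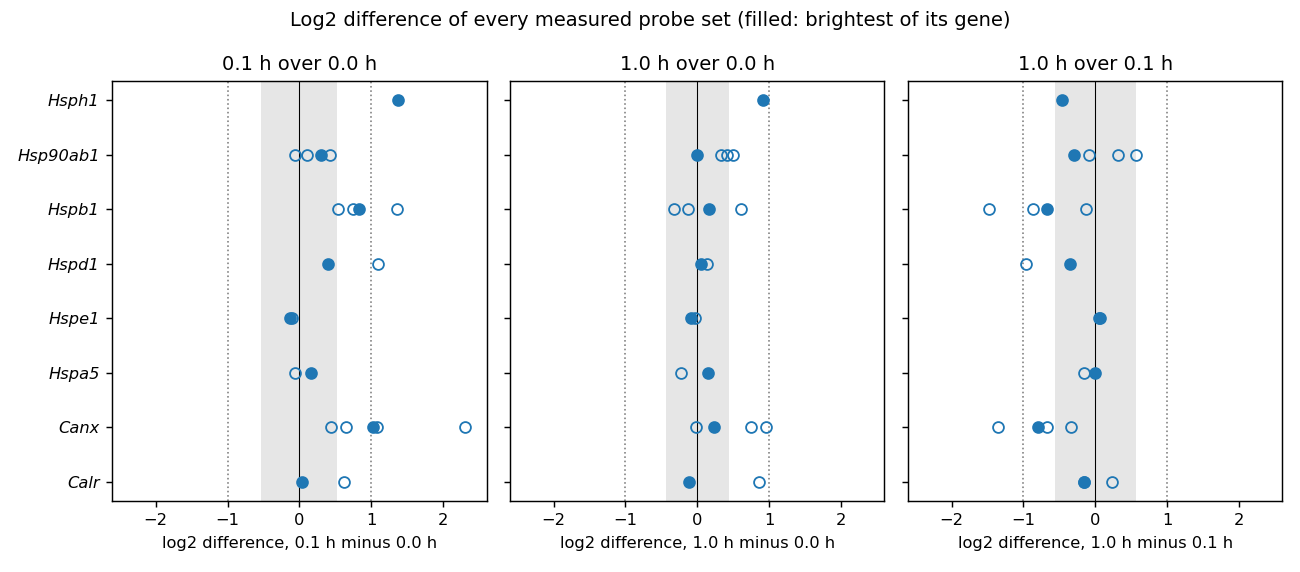
Log2 difference of each readable probe set in the 3 comparisons, with the brightest set of a gene filled and the others open. Dotted lines mark 2-fold and the grey band is the SD over all probe sets. Canx, Hspb1 and Hsph1 lie to the right at 0.1 h over 0.0 h, and the Hspe1 and Hspa5 points stay inside the band in every panel.

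**Figure D4:**
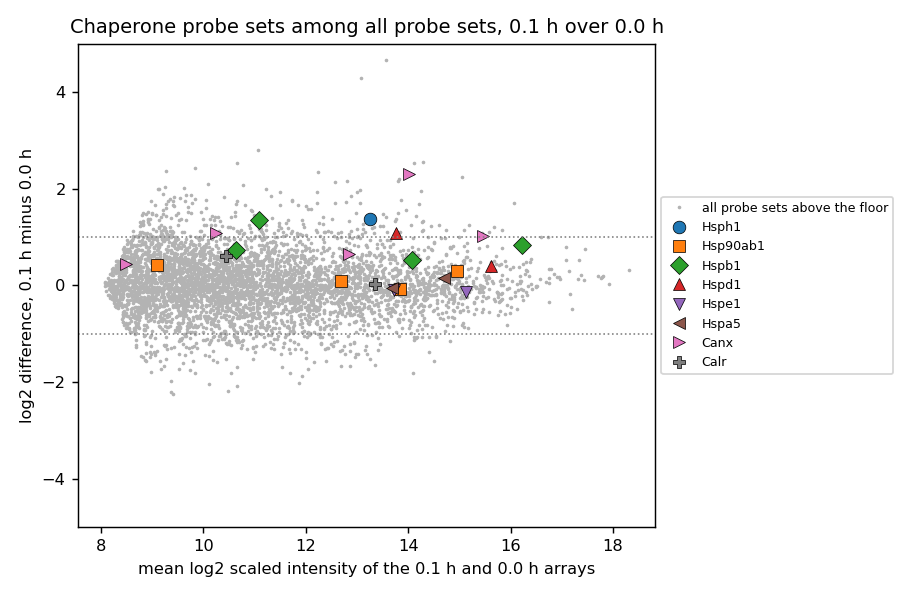
Log2 difference between 0.1 h and 0.0 h against the mean log2 intensity of those arrays, for all probe sets above the floor (grey) and for the chaperone probe sets (coloured by gene). Dotted lines mark 2-fold. The highest chaperone point is the Canx set at 4.94-fold, and none lies below -0.13.

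Probe sets of a single chaperone gene gave different sizes of change. At 0.1 h over 0.0 h, 7 of the 8 genes had 2 or more readable probe sets, and the range of log2 differences within a gene had a median of 0.58, against 0.42 over 724 genes. The narrowest range was 0.03 in Hspe1 and the widest 1.86 in Canx. Ranges and opposite directions depend on the number of probe sets, which was 2 to 5 in the 7 genes and was not matched in the comparison genes. Probe sets went in opposite directions in 2 of the 7 genes, Hspa5 and Hsp90ab1, against 39.1% of all such genes. At 1.0 h over 0.0 h they did so in 5 of 7, namely Hspa5, Hsp90ab1, Hspb1, Canx and Calr, against 45.4%. At 1.0 h over 0.1 h it was 2 of 7, Hsp90ab1 and Calr, against 41.3%.

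Hspa1b and Hspa8 were covered only by probe sets that the annotation gives to more than 1 gene, and these values belong to no single member. Hspa1a and Hspa1b encode the stress-inducible Hsp70 and are near-identical copies. Of 4 sets annotated to both, only L16764_s_at was above the floor, with 2176, 4510 and 4183 at 0.0 h, 0.1 h and 1.0 h. It was 2.07-fold higher at 0.1 h and 1.92-fold higher at 1.0 h than at 0.0 h, so both later arrays lay above the 0.0 h array. A probe set named for Hspa1a alone had 727.8, 1137 and 801.5, with its highest value at 0.1 h. Of the 2 sets annotated to Hspa8, the constitutive Hsp70, together with Haus8l2, M11942_s_at had 29727, 59687 and 34318 and was 2.01-fold higher at 0.1 h than at 0.0 h. The second, rc_AI234604_s_at, had 17361, 25871 and 11877, which is 1.49-fold higher at 0.1 h and 1.46-fold lower at 1.0 h than at 0.0 h. Making the spike-in controls equal lowers every 0.1 h over 0.0 h difference by 0.27, which takes L16764_s_at and M11942_s_at below 2-fold. One set annotated to Hspb1 and Asb2 had 488.3, 148.7 and 551.9 and went below the floor at 0.1 h, where the sets of Hspb1 alone were highest.

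Other genes of protein folding were read from 7 lists holding 114 symbols, of which 54 had a probe set of their own. At 0.1 h against 0.0 h, 50 could be read, 3 were at least 2-fold higher and 1 lower, and their median log2 difference was 0.26. The shares over all genes were 5.65% higher and 4.71% lower, and with the spike-in controls made equal the median of the listed genes was -0.0095. The J-domain and other cochaperones, which hand clients to Hsp70 and Hsp90, had a median of 0.64 over 14 genes. Of the 14, 12 were positive, against 49.7% of all genes. This sign count is for the main scaling, and equal spike-in controls lower every difference in this comparison by 0.27. Dnaja2, a J-domain partner of Hsp70, had 19447 at 0.1 h against 7012 at 0.0 h and was 2.77-fold higher. St13, which encodes the Hsp70-interacting protein Hip, had 8412 at 0.1 h against 3149 at 0.0 h and was 2.67-fold higher. Chordc1, an Hsp90 cochaperone, went the other way, with 4916 at 0.1 h against 13231 at 0.0 h, 2.69-fold lower. The 4 small heat shock genes read were all positive, and the brightest, Cryab and Hspb6, had log2 differences of 0.76 and 0.94. Of the cytosolic Hsp70 family, Hspa4 and Hspa1a were 1.23-fold and 1.56-fold higher, and the other 2 genes with a probe set were below the floor.

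The endoplasmic reticulum folding factors had a median of 0.01 over 16 genes at 0.1 h against 0.0 h, with 8 positive and 8 negative. Only Fkbp2, a prolyl isomerase of this compartment, passed 2-fold, with 6217 at 0.1 h against 1840 at 0.0 h, 3.38-fold higher. The brightest of these genes were Pdia6, for a disulfide isomerase, with a log2 difference of -0.04, and Erp29, for a luminal folding factor, with 0.29. Mitochondrial chaperones had a median of 0.27 over 5 genes, with Hspa9, the mitochondrial Hsp70, 1.21-fold and its exchange factor gene Grpel1 1.31-fold higher. The regulators had a median of 0.01 over 7 genes. The brightest were Hmox1, for heme oxygenase, and Nfe2l2, for the oxidative stress factor Nrf2, with log2 differences of -0.34 and -0.15. Hsf1, the gene of heat shock factor 1, was named after its values were seen, and was 1.17-fold higher at 0.1 h than at 0.0 h. The chaperonin and prefoldin list had only Cct3 and Pfdn2 above the floor on both arrays, with log2 differences of -0.49 and 0.12.

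At 1.0 h against 0.0 h, 2 of 50 were at least 2-fold higher and 1 lower, with a median of 0.09, against 2.41% and 2.61% of all genes. Pdia4, a disulfide isomerase gene, had 2635 at 1.0 h against 1169 at 0.0 h, 2.25-fold higher, and Fkbp4, an Hsp90 partner in steroid receptor complexes, had 1875 against 889.3, 2.11-fold higher. Chordc1 was 2.29-fold lower at 1.0 h than at 0.0 h. At 1.0 h against 0.1 h, 0 of 52 were at least 2-fold higher and 6 lower, with a median of -0.17, against 4.11% and 5.03% of all genes. The 6 were Dnajb1 at 2.47-fold, Hspb6 at 2.47-fold, Dnajb5 at 2.36-fold, Erp29 at 2.31-fold, St13 at 2.04-fold and Grpel1 at 2.03-fold. Dnajb1, a heat-inducible J-domain gene, had 4980 at 1.0 h against 12314 at 0.1 h. With the spike-in controls made equal these counts at 1.0 h against 0.1 h were 5 higher and 0 lower, and the median was 0.30, so its direction turned.

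**Figure D5:**
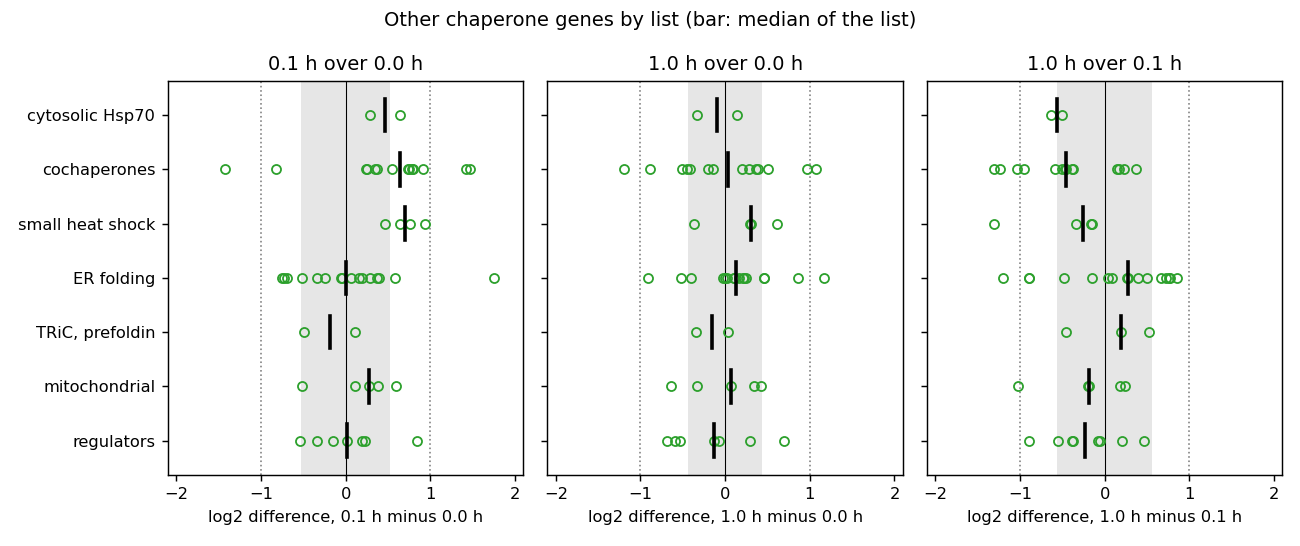
Log2 difference of each readable gene of the 7 other chaperone lists in the 3 comparisons, read from its brightest probe set, with a bar at the median of the list. Dotted lines mark 2-fold and the grey band is the SD over all probe sets. At 0.1 h over 0.0 h most cochaperones and all small heat shock genes lie right of 0, while the folding factors of the endoplasmic reticulum (ER) lie on both sides.

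Markers of other cells also differed between the arrays. The summed intensity of 4 leukocyte markers was 3031, 4611 and 4234 at 0.0 h, 0.1 h and 1.0 h. At 0.1 h against 0.0 h Ptprc was 2.53-fold and Lyz2 1.5-fold higher, and Aif1 was below the floor at 0.0 h. In contrast, 1 of the 4, Cd74, had 400.4 at 0.1 h against 541.6 at 0.0 h. The sum of 3 glial markers was 13437, 20253 and 18127, of which Vim gave 12076, 16542 and 15711, and Aqp4 was below the floor on all 3 arrays. S100b gave 1335, 3661 and 2360, and was 2.74-fold higher at 0.1 h than at 0.0 h. The sum of 5 pinealocyte markers was 49390, 56256 and 43114, and its genes went different ways. At 0.1 h against 0.0 h Asmt was 2.41-fold higher and Tph1 1.30-fold lower, and Pdc was 2.12-fold lower at 1.0 h than at 0.0 h. For 4 chromaffin markers the sum was 65359, 61972 and 49190. Nearly all of it was Chgb, with 64520, 61057 and 48390, so that sum is close to the level of 1 gene. The summed intensity of 4 endothelial markers was 3187, 2182 and 3020, with 4, 2 and 3 of them above the floor. At 1.0 h against 0.0 h Flt1 was 1.57-fold higher, Pecam1 and Kdr were 1.09-fold and 1.165-fold lower, and Vwf fell below the floor. For 2 erythroid markers the sum was 5183, 4818 and 5433, and at 1.0 h against 0.0 h Hbb was 1.21-fold higher and Alas2 1.56-fold lower. Chaperones are made by all of these cells, and the part of cell makeup in the chaperone values was not tested. In whole tissue, more cells of a type and more RNA per cell cannot be told apart.

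Hsph1 had the widest range over the 3 arrays of the 8 genes, 1.37 on the log2 scale. Among 2916 genes above the floor on all 3 arrays, the 3 whose centred log2 values lay nearest to those of Hsph1 were Pfkfb1, Or13p4 and Ptprc, at Euclidean distances of 0.01, 0.02 and 0.06. Pfkfb1 had 689.8, 1796 and 1304 at 0.0 h, 0.1 h and 1.0 h. In all, 25 genes lay closer than 0.2, and with 3 arrays such likeness is a description of these arrays.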

How the data were processed

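RNA of 3 rat samples was measured on 1 expression array each. The authors deposited 1 intensity per probe set, which was assumed to be linear, and no source used here names the summary method or software. The mean of the deposited intensities without the highest and lowest 2% was 2499.9 on each array, which shows a common scaling before deposit. Of 8799 probe sets, 59 were controls. The platform annotation gave 7006 of the others 1 gene symbol, 308 several and 1426 none. By gene ID, 6985 matched RefSeq genes of GRCr8 and 0 symbols changed.

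Log2 intensities were scaled to the array median, a floor was placed at percentile 40, and arrays were shifted to equal medians above it, by 0.01, 0.04 and -0.05 in total for 0.0 h, 0.1 h and 1.0 h. A gene was read from its probe set with the highest mean. With 1 array per label there was no test, and precision is limited by their number. The brightest 25% of probe sets, a choice made after the values were seen, had a mean above 1963. The scaling was tested on simulated data. Python 3.11.15, R 4.3.3 and limma 3.58.1 were used.

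The named genes were all members, and of the other lists every gene at least 2-fold apart in a comparison or, where a list had fewer than 2 of these in it, its 2 brightest measured genes. Hsf1, Pdia6, marker genes and genes picked for a promoter motif were named beside these. The members, lists and motifs were chosen with earlier results of these data known. Promoters came from RefSeq on GRCr8. Hspa1b had no promoter entry. Alternatives were the values as deposited, quantile and cyclic loess normalisation, equal spike-in means, floors at percentiles 20 and 60, the mean of a gene's probe sets, and the second-brightest probe set without sets ending in _g_at.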

Additional observations from a re-analysis of the deposited data

How the results depend on the processing

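No paired analysis was possible because each time label has 1 array. There were 8 alternatives, and neither member gene that was 2-fold apart, Hsph1 and Canx at 0.1 h over 0.0 h, changed direction under those that gave it a value. Counts of member probe sets under other scalings and floors were added after seeing the data. At 0.1 h over 0.0 h, 2 of 8 member genes were at least 2-fold higher, and 1 was with the values as deposited, quantile, cyclic loess, spike-in scaling, the lower floor (percentile 20) or probe sets averaged. Hsph1 passed in 7 of 8 settings and Canx in 4 of 9. On second-brightest probe sets the median of 5 member genes was 1.08. Member probe sets at least 2-fold higher numbered 6, and 3 with spike-in scaling. At 1.0 h over 0.0 h the count was 0, and it was 1 as deposited, with cyclic loess or with the lower floor (percentile 20), 2 with quantile normalisation and 3 with spike-in scaling, where 1 member gene also passed. At 1.0 h over 0.1 h, 1 probe set was higher with the lower floor (percentile 20) and with spike-in scaling, where 1 was lower in place of 2, and 1 member gene was lower on second-brightest sets.

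Of the other chaperone genes at 0.1 h over 0.0 h, 3 were higher and 1 lower. Averaging probe sets gave 5 higher, spike-in scaling 4 lower and second-brightest sets 0 lower. At 1.0 h over 0.0 h, 2 were higher and 1 lower. Spike-in scaling gave 4 and 0, second-brightest sets 4 and 0 over 11 genes, and quantile normalisation 2 lower. At 1.0 h over 0.1 h, 0 were higher and 6 lower, against 5 and 0 with spike-in scaling and 1 lower on second-brightest sets. The cause was not tested, except that second-brightest sets cover fewer genes. The number of arrays limits all values, and signal near the floor limits the dim probe sets.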

Other observations

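Genes outside the chaperone members whose promoter windows held 3 heat shock units were read in the same way. Of 19 on the array, 12 were above the floor at 0.1 h and 0.0 h, and their median log2 difference was 0.02. Among them, 2 were at least 2-fold higher and 1 lower, against 5.65% and 4.71% of all genes. Sod1, the cytosolic superoxide dismutase gene, had 65044 at 0.1 h against 30525 at 0.0 h, with a log2 difference of 1.09. Acot7, a gene for an acyl-CoA thioesterase, had 8456 at 0.1 h against 3912 at 0.0 h, with a log2 difference of 1.11, and 2989 at 1.0 h. Equal spike-in controls lower every 0.1 h over 0.0 h difference by 0.27, which takes both Sod1 and Acot7 below 2-fold. The gene that was lower was Chordc1. At 1.0 h against 0.0 h, 0 of 13 were at least 2-fold higher and 1 was lower, against 2.41% and 2.61% of all genes.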
